A study of Mus musculus with 7 samples.

Results

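The 10 genes described here encode the Crumbs polarity complex and the proteins that work beside it at the outer limiting membrane of the retina. They are the transmembrane Crumbs genes *Crb1* and *Crb2*, the MAGUK scaffold genes *Mpp3*, *Mpp4* and *Mpp5*, the multi-PDZ scaffold gene *Patj*, the Par complex genes *Pard3*, *Pard6a* and *Prkci*, and the cadherin gene *Cdh2*. They were chosen by name for the known role of their proteins, with no measured value in the rule, and each was found once among the 52550 genes of the count table. All 10 passed the filter on low counts, which left 20128 genes for testing, and none had fewer than 1397 counts in any library.

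The outer limiting membrane is a row of adherens junctions between photoreceptor inner segments and the apical processes of Müller glia, the radial glia that span the retina. Just apical to these junctions, the short cytoplasmic tail of a Crumbs protein holds PALS1, the product of *Mpp5*, which in turn holds PATJ and further MAGUK proteins, while the Par complex with its atypical protein kinase C acts next to it and N-cadherin, the product of *Cdh2*, bridges the neighbouring cells. Mutations of human *CRB1* cause inherited retinal dystrophies, and loss of Crumbs function in mouse retina opens gaps in the membrane through which photoreceptor nuclei move out of their layer.

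Total RNA-seq compared retina of 4 WT mice with that of 3 SCA7 knock-in mice, all on a C57BL/6J background and 12.5 weeks old. The SCA7 mice were homozygous for an *Atxn7* gene whose first exon carries an expanded CAG repeat (140Q/140Q), so mutant ataxin-7 is made wherever the gene's own promoter is active and not in photoreceptors alone. Each library came from the 2 retinas of 1 mouse, and males and females were used without a label for the sex of each sample. The comparison asks which genes change in a retina with a polyglutamine disease of photoreceptors.

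Total counts lay between 56497675 and 96635832 per library. *Atxn7* itself had 33.7 to 43.7 CPM in WT and 34.2 to 39.9 CPM in SCA7 (log2 fold change -0.06, adjusted p = 0.64 in edgeR), and gene counts do not read the repeat, so this level does not check the genotype labels. All 10 rod and all 10 cone marker genes were downregulated in SCA7, at median log2 fold changes of -1.14 and -1.96, and the summed rod markers went from 64530 to 66727 CPM in WT to 18039 to 23113 CPM in SCA7. The summed cone markers were 1509 to 1809 CPM in WT and 274 to 303 CPM in SCA7. In such bulk tissue, fewer cells of a type and less RNA per cell cannot be told apart. Lens RNA entered the dissections unevenly: the summed lens markers spanned 52.9 to 675 CPM in WT and 39.2 to 1099 CPM in SCA7, and of the 7 lens genes with enough counts for the test (*Lim2* had 0 to 7 counts) edgeR, DESeq2 and limma-voom called 0, with 0 at an unadjusted p under 0.05 in edgeR and a median log2 fold change of 0.79.

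The levels of the 10 genes in WT retina are given as RPK, normalised read counts per kilobase of median transcript length, the scale used here to order the levels of the genes. *Mpp4*, a MAGUK gene of photoreceptors, stood highest at 12932 ± 951 RPK (SD, n = 4), above 95.8% of the 16170 protein-coding genes expressed in WT retina. *Crb1* followed at 8209 ± 446 RPK. *Crb2* had 5470 ± 691 RPK and *Prkci*, the gene of atypical protein kinase C iota, 5153 ± 263 RPK. The libraries of these last genes overlapped, with *Crb2* above *Prkci* in 3 of 4 WT mice. *Patj* came next at 2476 ± 198 RPK, ahead of *Mpp5* at 1844 ± 32.2 RPK and *Cdh2* at 1740 ± 123 RPK. *Mpp5* and *Cdh2* again overlapped, as did *Cdh2* and *Pard6a*, the latter at 1415 ± 166 RPK. *Pard3* with 847 ± 27.6 RPK and *Mpp3* with 724 ± 60.6 RPK closed the order, on either side of the median of 732 RPK of the expressed protein-coding genes.

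This order depends on the length given to each gene. With the union of all exons in place of the median transcript, 5 of the 9 neighbouring pairs kept their order. *Pard6a*, whose union of 1582 bases is close to its median transcript of 1234 bases, then moved from place 8 to place 3. *Prkci*, with a median transcript of 688 bases and a union of 5551 bases, moved from place 4 to place 7. *Mpp4* and *Crb1* held the first places by both lengths.

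In SCA7 retina, the scaffold genes *Mpp4* and *Patj* were downregulated: the level of *Mpp4* fell by 39.7% and that of *Patj* fell by 36.9%, and the junction cadherin gene *Cdh2* was upregulated by 54.2%. The other 7 genes stayed inside the fold change limits, although *Crb1*, *Crb2* and *Mpp3* were lower and *Prkci* higher at an adjusted p under 0.05. Genes are called downregulated here where FC (SCA7/WT) was below 0.7, and upregulated where it was above 1.3, provided that the quasi-likelihood test of edgeR gave an adjusted p under 0.05 (Benjamini-Hochberg over all 20128 genes). By this rule 2 of the 10 genes were downregulated and 1 was upregulated, where 7.91% of all genes tested were downregulated and 7.47% upregulated. Without the fold change limits, 5 of the 10 were lower and 2 higher, against 14.2% of all genes lower and 14.2% higher, or 28.3% in either direction. Over the 10 genes the log2 fold change had a median of -0.18, beside -0.02 over all genes tested.

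**Figure D1:**
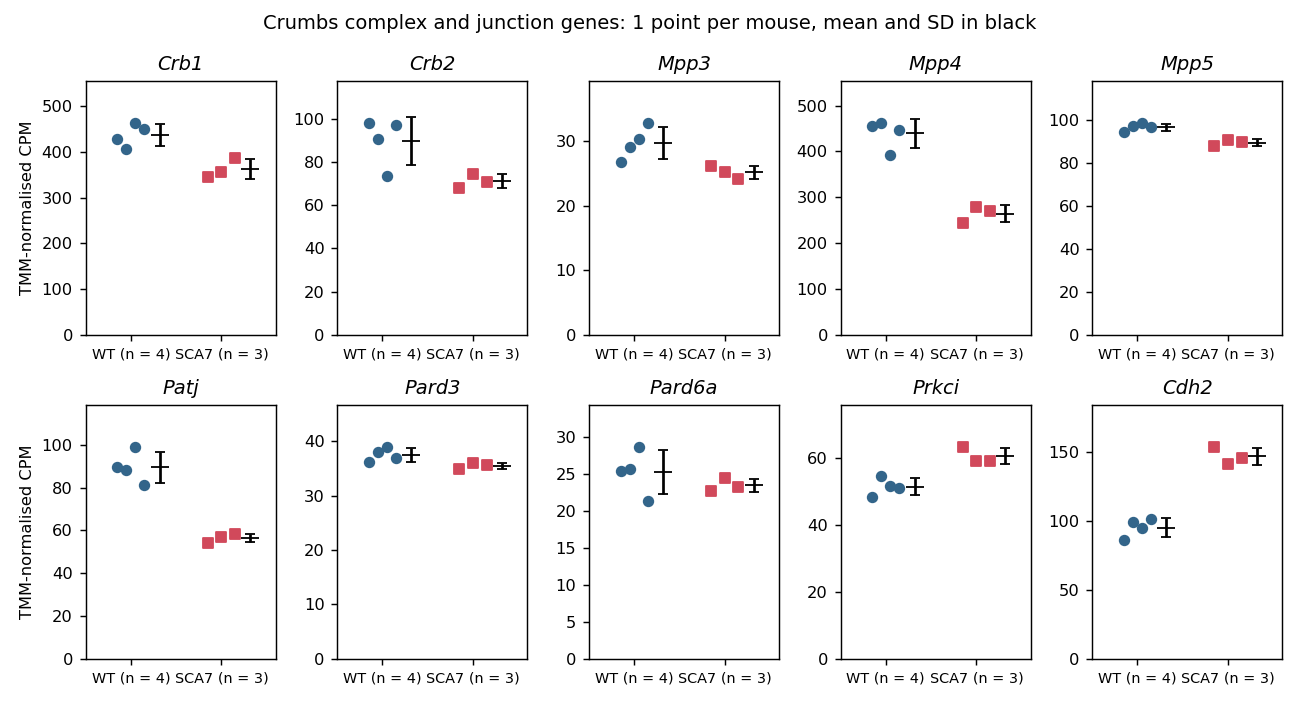
TMM-normalised CPM of the 10 genes in each mouse, with 4 WT mice as circles and 3 SCA7 mice as squares, the mean and SD in black and each vertical axis starting at 0. *Mpp4* and *Patj* show wide gaps with SCA7 below WT, *Cdh2* a wide gap with SCA7 above WT, and *Crb2* and *Pard6a* overlap between the genotypes.

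The genotypes did not overlap in 8 of the 10 genes, with every SCA7 library below every WT library in 6 and above in 2. Over all genes tested the genotypes did not overlap in 37.5%, with SCA7 below in 18.3% and above in 19.3%.

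*Mpp4* (ENSMUSG00000079550; chr1:59120935-59163389 of mm10, minus strand) encodes a palmitoylated MAGUK scaffold of photoreceptors that joins the Crumbs complex and is also found at the photoreceptor synapse. Its level in WT replicates 1 to 4 was 455, 461, 393 and 447 CPM. In SCA7 replicates 1 to 3 it was 244, 279 and 270 CPM. The highest SCA7 mouse thus lay well under the lowest WT mouse. The log2 fold change was -0.73 (95% interval -0.90 to -0.56, standard error 0.077, adjusted p = 2.9e-05 in edgeR). Of its exonic bases, 510 lie opposite the antisense gene *G730003C15Rik*, which had 161 to 355 counts, against at least 15041 for *Mpp4*, and a log2 fold change of 0.43 (adjusted p = 0.040 in edgeR).

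*Patj* (ENSMUSG00000061859; chr4:98395785-98719603, plus strand) encodes the scaffold of many PDZ domains that PALS1 recruits to Crumbs. WT replicates 1 to 4 had 89.6, 88.4, 98.9 and 81.1 CPM. SCA7 replicates 1 to 3 had 54.2, 57.0 and 58.1 CPM. Again no SCA7 mouse reached the lowest WT mouse, and the 3 SCA7 mice differed little among themselves (SD 1.99 CPM around a mean of 56.4 CPM). The log2 fold change was -0.66 (95% interval -0.82 to -0.51, standard error 0.070, adjusted p = 2.8e-05 in edgeR). With library totals in place of TMM factors, a scaling that moved the median of all genes up by 0.19, it was -0.47 and short of the limit of FC 0.7, while *Mpp4* at -0.54 stayed past it.

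*Cdh2* (ENSMUSG00000024304; chr18:16588877-16809246, minus strand) encodes N-cadherin, the adhesion molecule of the outer limiting membrane that is also used by Müller glia and by neurons of the inner retina. It had 86.3, 99.1, 94.9 and 101 CPM in WT replicates 1 to 4. In SCA7 replicates 1 to 3 it had 154, 142 and 146 CPM. Every SCA7 mouse was above every WT mouse by a wide margin. The log2 fold change was 0.62 (95% interval 0.48 to 0.77, standard error 0.067, adjusted p = 3.2e-05 in edgeR).

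**Figure D2:**
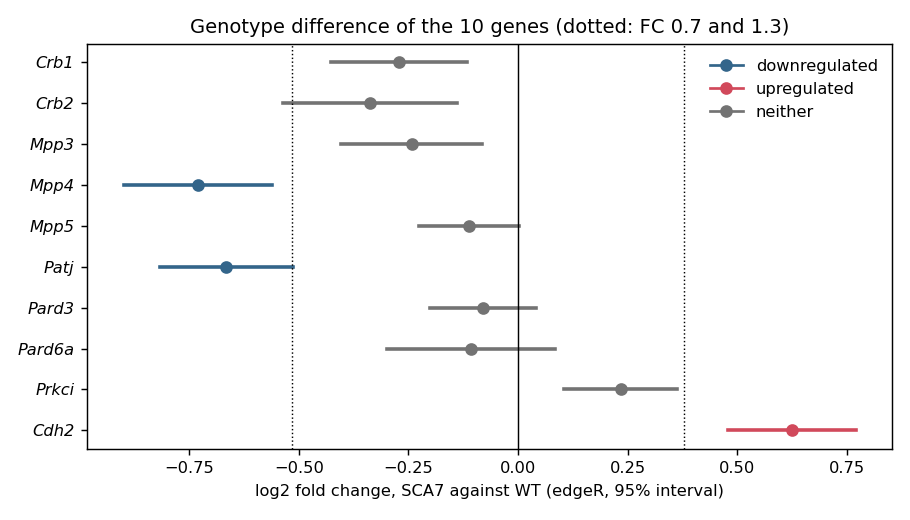
Log2 fold change of each of the 10 genes (SCA7 against WT, horizontal axis) with its 95% interval from the edgeR fit, coloured by call, with dotted lines at FC 0.7 and 1.3. The intervals of *Mpp4*, *Patj* and *Cdh2* lie farthest from 0, and those of *Mpp5*, *Pard3* and *Pard6a* include 0.

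The transmembrane Crumbs genes were lower in SCA7 by smaller amounts. *Crb1* (ENSMUSG00000063681; chr1:139197056-139377100, minus strand), whose protein serves photoreceptors and Müller glia, had 429, 406, 462 and 450 CPM in WT replicates 1 to 4. It had 344, 355 and 386 CPM in SCA7 replicates 1 to 3. The genotypes did not overlap, and the log2 fold change was -0.27 (adjusted p = 0.013 in edgeR, standard error 0.071), a decrease of 17.1%. *Crb2* (ENSMUSG00000035403; chr2:37776249-37799103, plus strand), its paralog in the same membrane, had 97.8, 90.6, 73.5 and 96.9 CPM in WT and 68.0, 74.4 and 70.6 CPM in SCA7. Here WT replicate 3 fell within the SCA7 range, and the log2 fold change was -0.34 (adjusted p = 0.017 in edgeR, standard error 0.091), a decrease of 20.8%. Without SCA7 replicate 1 the adjusted p of *Crb1* was 0.084 and without SCA7 replicate 2 it was 0.067, and that of *Crb2* was 0.056 without WT replicate 1, 0.081 without SCA7 replicate 1, 0.057 without SCA7 replicate 3 and 4.2e-05 without WT replicate 3. With library totals the log2 fold changes were -0.08 and -0.15, with adjusted p of 0.36 and 0.30 in edgeR.

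The other MAGUK genes showed smaller differences than *Mpp4*. *Mpp5* (ENSMUSG00000021112; chr12:78748907-78840714, plus strand), the gene of PALS1 at the centre of the complex, had 94.5 to 98.4 CPM in WT and 87.7 to 90.9 CPM in SCA7. These narrow ranges did not overlap, but the log2 fold change of -0.11 (95% interval -0.23 to 0.0020, adjusted p = 0.13 in edgeR) did not pass the test and was 0.078 with library totals. *Mpp3* (ENSMUSG00000052373; chr11:101999652-102028461, minus strand), a MAGUK gene whose protein helps to keep the membrane intact, had 26.7, 29.1, 30.3 and 32.7 CPM in WT and 26.1, 25.1 and 24.2 CPM in SCA7. WT replicate 1 lay just above the highest SCA7 mouse, and the log2 fold change was -0.24 (adjusted p = 0.029 in edgeR, standard error 0.074). That adjusted p was 0.054 without WT replicate 2, 0.063 without SCA7 replicate 1, 0.087 without SCA7 replicate 2 and 0.12 without SCA7 replicate 3, and the log2 fold change with library totals was -0.05 (adjusted p = 0.63).

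Per length, *Mpp4* made up 83.4% ± 1.32 (SD, n = 4) of the summed RPK of the 3 MAGUK genes in WT and 77.0% ± 1.15 (SD, n = 3) in SCA7. The share of *Mpp5* was 11.9% ± 0.876 in WT and 16.9% ± 0.625 in SCA7, and that of *Mpp3* 4.69% ± 0.524 and 6.08% ± 0.538. *Mpp4* thus remained the most abundant of the 3 in every library of both genotypes. The share of *Crb1* in the sum of both Crumbs genes was 60.1% ± 3.96 in WT and 61.1% ± 1.62 in SCA7. All these shares depend on the lengths used. With the union of exons as length, *Crb1* had a mean of 2088 RPK in WT and *Crb2* 924 RPK.

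**Figure D3:**
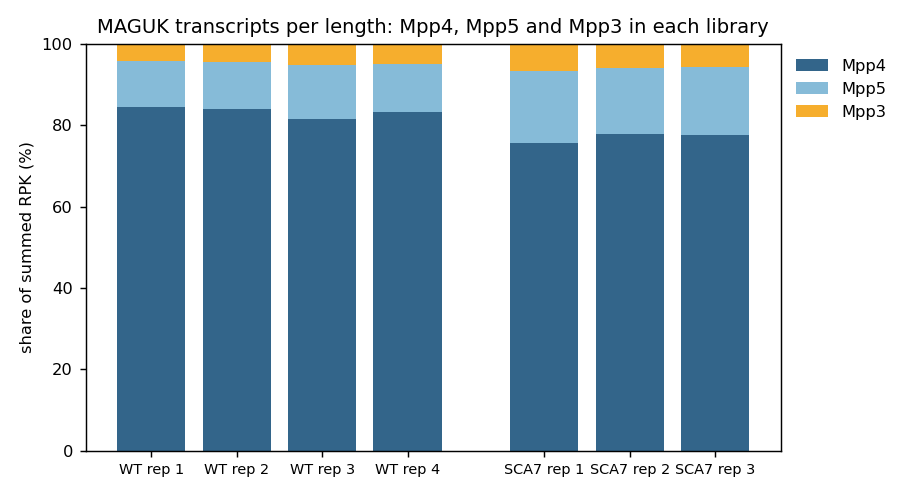
Share of *Mpp4*, *Mpp5* and *Mpp3* in their summed RPK (vertical axis, percent) in each of the 7 libraries, as stacked bars from 0. *Mpp4* takes 81.6% to 84.5% in the WT libraries and 75.7% to 77.8% in the SCA7 libraries, with *Mpp5* and *Mpp3* taking more in SCA7.

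Of the Par complex genes, *Prkci* alone passed the test. *Prkci* (ENSMUSG00000037643; chr3:30995747-31052959, plus strand), the gene of the atypical kinase that Par6 activates, had 48.3, 54.4, 51.6 and 51.1 CPM in WT replicates 1 to 4 and 63.2, 59.1 and 59.0 CPM in SCA7 replicates 1 to 3. All SCA7 mice were above all WT mice, and the log2 fold change was 0.23 (adjusted p = 0.012 in edgeR, standard error 0.059), an increase of 17.6% that did not reach FC 1.3. Without SCA7 replicate 1 the adjusted p was 0.076, and with library totals the log2 fold change was 0.42 and past that limit. *Pard3* (ENSMUSG00000025812; chr8:127063893-127612286, plus strand), the gene of the scaffold Par3, had 36.1 to 38.9 CPM in WT and 34.8 to 35.9 CPM in SCA7. Its log2 fold change was -0.08 (95% interval -0.20 to 0.042, adjusted p = 0.32 in edgeR), and 0.11 with library totals. *Pard6a* (ENSMUSG00000005699; chr8:105701148-105703496, plus strand), the gene of the adaptor Par6α, had 21.4 to 28.7 CPM in WT, a range that holds all SCA7 values of 22.7 to 24.4 CPM. Its log2 fold change was -0.11 (95% interval -0.30 to 0.085, adjusted p = 0.40 in edgeR), and 0.087 with library totals. It was -0.04 without WT replicate 3 and -0.18 without WT replicate 4 (adjusted p = 0.061).

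Ratios of genes within a library need no scaling between libraries, and 5 pairs of genes of like or linked role were compared in this way with an exact two-sided permutation test over all 35 ways of assigning the libraries to the genotypes. The log2 ratio of *Mpp4* to *Mpp3* counts was 3.89 ± 0.184 (SD, n = 4) in WT and 3.39 ± 0.146 (SD, n = 3) in SCA7, a difference of -0.49 (exact permutation p = 0.0286, the smallest possible, adjusted over the 5 ratios 0.048). The ratio of *Patj* to its partner *Mpp5* moved from -0.11 ± 0.109 to -0.66 ± 0.034, a difference of -0.55 with the same exact p and adjusted p. In both ratios every SCA7 mouse lay below every WT mouse. The ratio of *Prkci* to *Prkcz*, the genes of both atypical kinases, went from -1.19 ± 0.059 to -0.64 ± 0.084, a difference of 0.55 with the same p values in the exact test. *Prkcz* itself was lower, with 117 ± 5.64 CPM in WT against 93.8 ± 1.82 CPM in SCA7 (log2 fold change -0.32, adjusted p = 0.0019 in edgeR). For *Crb1* to *Crb2* the difference was 0.057 (2.29 ± 0.243 in WT, 2.35 ± 0.099 in SCA7, exact permutation p = 0.74, adjusted 0.86). Without WT replicate 3, the highest of all 7 libraries, the difference was 0.18 (exact permutation p = 0.10, the smallest possible with 3 mice of each genotype). For *Pard3* to *Pard6a* it was 0.021 (0.57 ± 0.150 and 0.59 ± 0.035, exact p = 0.86, adjusted 0.86).

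**Figure D4:**
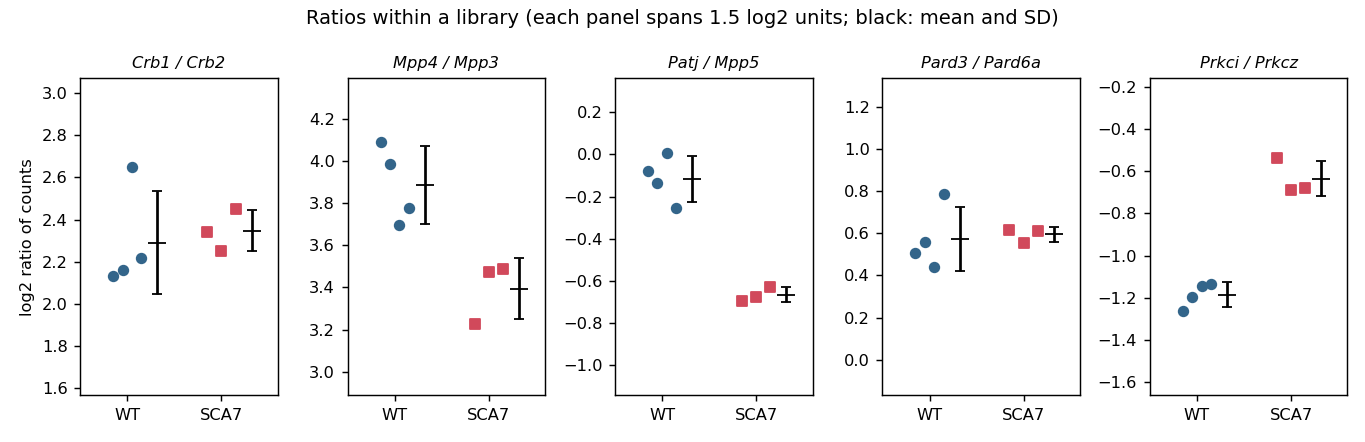
Log2 ratio of counts within each library for the 5 gene pairs, with 4 WT mice as circles, 3 SCA7 mice as squares and the mean and SD in black, each panel spanning 1.5 log2 units. The genotypes separate for *Mpp4* to *Mpp3*, *Patj* to *Mpp5* and *Prkci* to *Prkcz*, and overlap for *Crb1* to *Crb2* and *Pard3* to *Pard6a*.

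The study compiled from other data a list of photoreceptor specific genes and lists of direct targets of CRX and NRL, the transcription factors of photoreceptors. Of the 10 genes, *Crb1*, *Mpp4* and *Cdh2* are among the CRX targets, a list that takes in 5.26% of all genes tested. *Crb1*, *Crb2* and *Mpp4* are among the NRL targets (3.34%), and *Crb1* and *Crb2* are on the photoreceptor specific list (0.472%). The CRX targets among the 10 thus include the downregulated *Mpp4* as well as the upregulated *Cdh2*, and *Patj* is on none of the lists.

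RefSeq promoter windows of GRCm38.p6, from 250 bases before a start site to 50 bases after it, were held for 7 of the 10 genes, 12 windows in all, and not for *Mpp3*, *Mpp5* and *Cdh2*. They were searched on both strands for TAATCC, the core letters of CRX sites, and TGCTGA, the core letters of NRL sites, which do not overlap each other in these windows. TAATCC was in 1 of the 12 windows, that of an inner start of *Mpp4*, and in 7.06% of all 32851 promoter windows of this length. TGCTGA was in 4 windows of *Mpp4*, *Patj* and *Pard6a*, and in 19.5% of all windows. Shown here are the 250 bases before the start for *Mpp4* and *Patj*, the downregulated genes, at an inner start site of each whose window holds these letters, and for *Crb1*, which is on all 3 lists. Capitals mark TAATCC or TGCTGA in either orientation.
*Mpp4*, inner start, chr1:59161637-59161886, minus strand: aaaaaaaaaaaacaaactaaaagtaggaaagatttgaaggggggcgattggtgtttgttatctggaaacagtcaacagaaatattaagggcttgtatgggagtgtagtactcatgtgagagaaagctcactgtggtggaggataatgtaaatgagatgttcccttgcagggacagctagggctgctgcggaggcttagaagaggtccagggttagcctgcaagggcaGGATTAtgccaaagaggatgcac
*Patj*, inner start, chr4:98410777-98411026, plus strand: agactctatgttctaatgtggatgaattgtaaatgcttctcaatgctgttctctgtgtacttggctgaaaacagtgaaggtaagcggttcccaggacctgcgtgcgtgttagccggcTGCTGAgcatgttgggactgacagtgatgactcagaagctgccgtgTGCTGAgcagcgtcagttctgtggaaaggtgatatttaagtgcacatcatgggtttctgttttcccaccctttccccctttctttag
*Crb1*, chr1:139377077-139377326, minus strand: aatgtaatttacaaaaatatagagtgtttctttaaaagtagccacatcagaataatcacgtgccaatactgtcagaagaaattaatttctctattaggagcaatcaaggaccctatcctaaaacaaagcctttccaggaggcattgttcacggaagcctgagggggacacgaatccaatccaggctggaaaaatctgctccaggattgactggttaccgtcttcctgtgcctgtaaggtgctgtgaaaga

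In the *Mpp4* stretch, TAATCC stands in reverse orientation and begins 23 bases before the start, at chr1:59161654-59161659. This stretch lies within the span of a longer *Mpp4* transcript and in no annotated exon, and the exon that follows it is the first one of shorter transcripts. In the *Patj* stretch, TGCTGA stands at positions 133 and 87 bases before the start, inside an intron of the longer transcripts, and the exon that follows it is annotated as coding. Neither set of letters was in the *Crb1* window, nor in that of the outermost *Patj* start at chr4:98395576-98395875. Of the *Crb1* stretch, 24 bases lie in an annotated *Crb1* exon. Of the other motifs searched, the E-box CACGTG was in 2 of the 12 windows, of *Crb1* and *Pard6a* (7.15% of all windows), and the GC box GGGCGG in 6 of the 12 (35.7% of all windows). These are matches of letters and were not tested for binding.

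The wider polarity and junction machinery was read from 4 lists of 58 genes, all of which passed the filter. Of these, 1 was downregulated and 5 were upregulated, and without the fold change limits 7 were lower and 20 higher. Their median log2 fold change was 0.15, beside -0.18 for the 10 genes and -0.02 for all genes tested. With library totals, 0 of the 58 were downregulated and 24 upregulated, in a setting where the calls over all genes went from 1592 downregulated and 1504 upregulated to 978 and 3681.

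Among 11 other genes of Crumbs complexes, the MAGUK gene *Mpp7* was downregulated and *Lin7b*, the gene of a small PDZ protein that binds such MAGUK proteins, was upregulated. Without the fold change limits, 1 of the 11 was lower and 3 were higher. *Mpp7* had 41.5, 37.3, 39.3 and 39.0 CPM in WT replicates 1 to 4 and 25.1, 27.8 and 26.5 CPM in SCA7 replicates 1 to 3 (log2 fold change -0.57, adjusted p = 4.4e-05 in edgeR). *Lin7b* went from 4.75 ± 0.757 to 6.31 ± 0.224 CPM (log2 fold change 0.41, adjusted p = 0.023 in edgeR). The call of *Lin7b* was lost without WT replicate 2 (adjusted p = 0.068), SCA7 replicate 1 (0.090), SCA7 replicate 2 (0.066) or SCA7 replicate 3 (0.056), and without WT replicate 4 its log2 fold change of 0.36 was short of FC 1.3. The third Crumbs gene, *Crb3*, had a low level of 2.52 ± 0.190 CPM in WT against 2.85 ± 0.296 CPM in SCA7 (adjusted p = 0.31). Of 16 other Par and Scribble genes 0 were called in either direction by edgeR, DESeq2 or limma-voom. At an unadjusted p under 0.05 in edgeR, 4 of them were lower and 6 higher, and after adjustment 3 and 3.

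Of 20 genes of junction partners 0 were called with the fold change limits by edgeR, DESeq2 or limma-voom. At an unadjusted p under 0.05 in edgeR 9 were higher and 3 lower, and after adjustment 8 and 2. *Ctnnb1*, the gene of beta-catenin that binds the cadherin tail, had 382 ± 20.6 CPM in WT against 457 ± 7.79 CPM in SCA7 (log2 fold change 0.26, adjusted p = 0.011 in edgeR). *Ctnna1*, whose product links it to actin, had 105 ± 5.30 CPM in WT and 136 ± 5.51 CPM in SCA7 (log2 fold change 0.37, adjusted p = 8.1e-04), just short of FC 1.3, and passed that limit without WT replicate 2 (0.40), WT replicate 4 (0.38) or SCA7 replicate 3 (0.40). The tight junction scaffold gene *Tjp1*, whose protein also sits at the outer limiting membrane, was at 151 ± 3.67 and 145 ± 2.42 CPM (adjusted p = 0.46).

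Of 11 genes of the apical cortex and microvilli, 4 were upregulated, and without the fold change limits 6 were higher and 1 lower. The lower one, *Prom1*, a gene of photoreceptor outer segment discs named here after its value was seen, had 1127 ± 56.2 CPM in WT and 941 ± 27.4 CPM in SCA7 (log2 fold change -0.26, adjusted p = 0.015 in edgeR). *Cd44*, the hyaluronan receptor of Müller microvilli, went from 9.26 ± 0.433 to 20.9 ± 3.90 CPM (log2 fold change 1.17, adjusted p = 9.4e-06 in edgeR). *Myo7a*, a myosin of photoreceptors and pigment epithelium, went from 23.7 ± 3.08 to 46.1 ± 2.69 CPM (0.96, adjusted p = 1.4e-05). The genes of the actin linkers moesin and ezrin followed, *Msn* from 17.2 ± 1.04 to 28.4 ± 2.01 CPM (0.72, adjusted p = 1.9e-05) and *Ezr* from 13.2 ± 1.67 to 18.8 ± 2.34 CPM (0.50, adjusted p = 0.0049). In each of these 4 called genes every SCA7 mouse was above every WT mouse, which held for 19.3% of all genes tested.

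**Figure D5:**
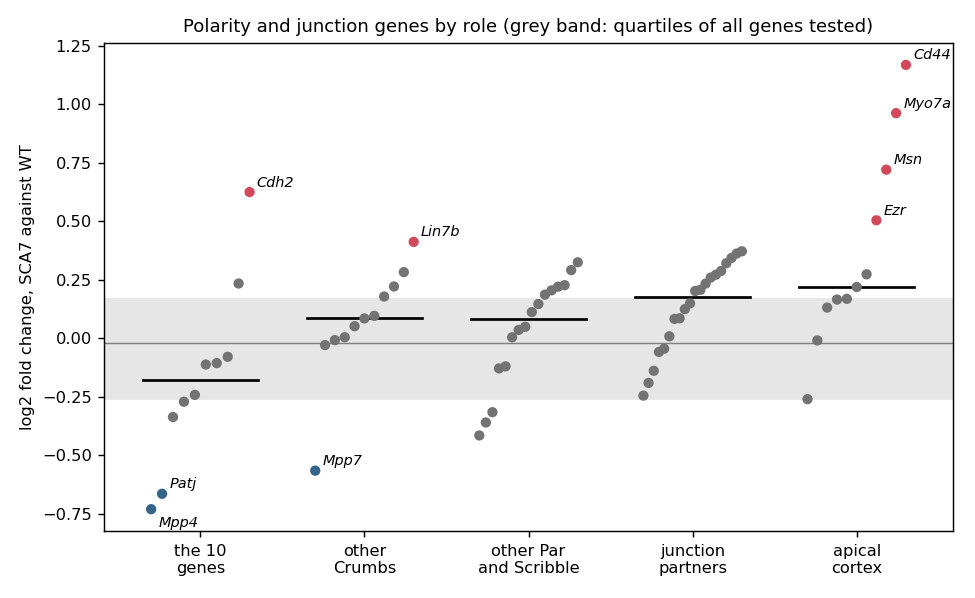
Log2 fold change (SCA7 against WT, vertical axis) of the 10 genes and of the 58 genes in the 4 lists, 1 point per gene, with called genes in colour and named, the median of each list as a black bar and the quartiles and median of all genes tested as a grey band and line. Of the 5 upregulated genes of the lists, 4 are among those of the apical cortex, and the medians of the 4 lists lie above that of the 10 genes.

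Marker genes of the cell types that meet at the outer limiting membrane, and of others in the dissection, were read beside these values. Of 11 Müller glia markers, *Apoe* was upregulated and the other 10 were called in neither direction by edgeR, while without the fold change limits 6 were higher and 1 lower. Their log2 fold changes had a median of 0.22. Their summed level, 5804 to 6609 CPM in WT and 5890 to 6174 CPM in SCA7, takes more of its reads from the lower one than from any other, the glutamine synthetase gene *Glul*, with 2928 ± 314 CPM in WT and 2287 ± 79.1 CPM in SCA7 (adjusted p = 0.013 in edgeR). Of 9 genes of reactive glia, 8 were upregulated with a median of 2.33, and their sum was 113 to 126 CPM in WT and 536 to 632 CPM in SCA7. All 8 microglia markers were upregulated, from a sum of 34.3 to 42.0 CPM to one of 74.0 to 82.9 CPM. Markers of endothelium and pericytes (2 of 7 upregulated) summed to 241 to 285 CPM and 325 to 371 CPM, and without the fold change limits 5 were higher and 1 lower. Most reads of that sum came from *Kdr*, with 106 ± 18.2 CPM in WT and 171 ± 27.4 CPM in SCA7, and from *Rgs5*, with 94.5 ± 5.39 and 115 ± 4.90 CPM. The lower gene was the endothelial claudin gene *Cldn5*, with 15.1 ± 2.54 and 10.8 ± 0.337 CPM (log2 fold change -0.48, adjusted p = 0.011 in edgeR), and *Pecam1* had a log2 fold change of -0.01 (adjusted p = 0.92). *Glul*, these 4 genes and the pigment epithelium genes named next were singled out after their values were seen. Of 7 markers of the retinal pigment epithelium 2 were downregulated, with a sum of 85.4 to 146 CPM in WT and 35.8 to 62.9 CPM in SCA7. Those 2 genes, *Ttr* (69.0 ± 19.2 CPM in WT, 15.4 ± 6.51 CPM in SCA7) and *Rpe65* (21.1 ± 7.29 and 4.40 ± 1.78 CPM), carried the difference, and the other 5 did not pass the test, with log2 fold changes of -0.90 (*Pmel*) to 0.51 (*Tyrp1*). All 14 markers of inner retinal neurons had log2 fold changes below 0, with a median of -0.38. Of these, 2 were downregulated and 9 were lower without the fold change limits, and their sum was 1666 to 1986 CPM in WT and 1412 to 1475 CPM in SCA7. The summed markers of rods, cones, inner retinal neurons and pigment epithelium were thus lower in SCA7 together with *Mpp4* and *Patj*. The sums of reactive glia, microglia and vessel markers, the last without a like change in *Cldn5* and *Pecam1*, were higher together with *Cdh2* and the 4 apical genes, while the sums of Müller glia markers overlapped between the genotypes. The part of these cell types in the results was not tested.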

How the data were processed

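Total RNA-seq of 4 WT and 3 SCA7 retina samples was used. The authors removed ribosomal RNA, made stranded libraries and mapped single reads of 50 bases to mm10 with TopHat2 2.0.14 and Bowtie2 2.1.0, then counted them with HTSeq 0.6.1 on Ensembl release 90. They deposited raw counts per gene, without normalization. The HTSeq mode and strand option are not given in the sources used here, so reads of overlapping and antisense genes may not be separated. Gene names, positions and transcript lengths came from GENCODE M21 (GRCm38), where 52403 of the 52550 genes were found. Total counts per library of 56497675 to 96635832 make 1 count worth 0.0103 to 0.0177 CPM.

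Genes were kept with filterByExpr, scaled by TMM and tested by edgeR 4.0.16 (quasi-likelihood, robust) in R 4.3.3, without covariates. The biological coefficient of variation was 0.106. RPK used DESeq2 size factors. CPM values are TMM-normalised, and intervals and SD are over mice. Alternatives were DESeq2 size factors, library totals, TMM without the 100 most abundant genes, DESeq2 1.42.0, limma-voom (limma 3.58.1), other filters and thresholds, the replicate number as a block, each library left out, other RPK lengths and scalings and, added after seeing the data, 2 settings for lens RNA. The steps were tested on simulated counts.

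The 10 genes and all lists were chosen with earlier results of these data known, so no p is given for a list. All 10 genes are named, and from the lists of other polarity and junction genes each called gene and, whatever their result, *Crb3*, *Prkcz*, *Ctnnb1*, *Ctnna1*, *Tjp1* and *Ezr*. *Prom1*, *Dlg5* and *Nectin3* from these lists were added after their values were seen. The ChIP-seq data were not analysed here, and the values of 1 gene are not reported here.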

Additional observations from a re-analysis of the deposited data

Results flagged for a closer look

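Within the 4 WT mice, 40 values given above were searched for a mouse that stands apart by Dixon's criterion, which by chance marks about 1 group in 20, and 4 were marked. In WT replicate 3 the log2 ratio of *Crb1* to *Crb2* was 2.65, against 2.13 to 2.22 in the other WT mice, and the share of *Crb1* in both genes was 66.0%, against 57.5% to 58.9%. In the same mouse *Mpp5* took 13.2% of the MAGUK sum, against 11.4% to 11.7%. In WT replicate 1 *Ctnnb1* had 351 CPM, against 390 to 393 CPM in the others.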

How the results depend on the processing

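*Mpp4*, *Patj* and *Cdh2* kept their direction and an adjusted p under 0.05 in all 17 alternatives, with log2 fold changes of -0.78 to -0.54, -0.71 to -0.47 and 0.58 to 0.81. With library totals, 1 of the 10 genes was downregulated and 2 were upregulated, and 0 and 24 of the 58 listed genes. Of all 20128 genes tested, 978 were then downregulated and 3681 upregulated. Without fold change limits, 5 of the 10 genes were lower and 2 higher, and 7 and 20 of the 58. Over all genes tested these counts were 2852 and 2853. With only the 3 libraries under 200 CPM of lens markers (WT replicates 1 and 4, SCA7 replicate 3), where the lone SCA7 mouse is assumed to vary like the WT mice, 2 of the 58 were downregulated, and the adjusted p of *Crb1* was 0.39, of *Mpp3* 0.16 and of *Prkci* 0.16, while *Crb2* had a log2 fold change of -0.46 (adjusted p = 0.0059 in edgeR). Library totals turned *Mpp5* to 0.078, *Pard3* to 0.11 and *Pard6a* to 0.087, and the libraries low in lens RNA put *Pard6a* at 3.4e-04. The cause was not tested, except that library totals move all genes alike.

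With each library left out, 2 of the 10 genes were downregulated and 1 upregulated in all 7 fits, 1 of the 58 was downregulated and 4 to 6 were upregulated. Over all genes tested, these fits called 1196 to 1731 downregulated and 1215 to 1559 upregulated. The ratio of *Pard3* to *Pard6a* then lay between -0.023 and 0.092 and changed sign without WT replicate 1 (-0.0011) and without WT replicate 3 (-0.023). The other ratios kept their sign, at 0.0045 to 0.18 for *Crb1* to *Crb2*, -0.56 to -0.41 for *Mpp4* to *Mpp3*, -0.60 to -0.51 for *Patj* to *Mpp5* and 0.50 to 0.58 for *Prkci* to *Prkcz*, although with 6 libraries the exact test cannot pass 0.05. With the union of exons as length, 5 of 9 neighbouring pairs kept the WT order of levels.

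Same-numbered mice of the 2 genotypes also carry close animal numbers in their titles, but the labels name no shared litter, batch or day. The correlations of their deviations were 0.0067, 0.31 and 0.13, so pair 1 shows no pairing, and only pair 2 matched itself best. With the replicate block, the calls over all genes were 1706 and 1629, and 2 of the 10 genes were downregulated and 1 upregulated, so no call among the 10 genes changed. Of the 58 listed genes, *Lin7b* was no longer upregulated under the block (log2 fold change 0.37, short of FC 1.3), and *Ctnna1* (0.38) and *Dlg5* (0.42) were upregulated. Without single libraries *Dlg5* was also called without WT replicate 4, and *Nectin3* without WT replicate 1 and without SCA7 replicate 2. The block called 3 of the 11 Müller glia markers upregulated, and of the 7 vessel markers 3 upregulated and 1 downregulated, and put the log2 fold change of *Pard6a* at -0.18 (adjusted p = 0.055 in edgeR). *Dlg5* and *Nectin3* were named after their values were seen. Under the block the log2 ratio differences were 0.033 for *Crb1* to *Crb2*, -0.53 for *Mpp4* to *Mpp3*, -0.60 for *Patj* to *Mpp5*, 0.092 for *Pard3* to *Pard6a* and 0.57 for *Prkci* to *Prkcz*, where 3 pairs cannot give an exact p under 0.25.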
